A study of Mus musculus with 12 samples.

Results

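The 35 genes described here are expressed at high levels by astrocytes, and were picked by symbol from a list of such genes. That list was chosen with earlier results of these data known. All 35 were listed in both deposited tables, out of 18607 genes listed in either of them. They were followed in 12 RNA-seq libraries, 3 per group, made from oligo-dT enriched RNA of C57BL/6 mouse primary neurons at day 10. In the first table, neurons made to over-express H-Ras(G12V), an H-Ras mutant that stays in its active GTP-bound state, are set against neurons labelled WT and given mCherry, a fluorescent protein. An adeno-associated virus carried H-Ras(G12V), per the design text of the series. In the second table, neurons labelled WT and treated with etoposide, a topoisomerase II poison that leaves breaks in DNA, are set against WT neurons given its solvent DMSO. The study set up both treatments as models of neuronal ageing, the first by oncogene-induced senescence and the second by stress-induced premature senescence, and asked which pathways they have in common. The promoter of the transgene, the dose of etoposide and the brain region are not given in the sources used here. Whether a group's libraries stem from different cultures or animals is not given either, so the p-values describe scatter among these libraries, which could be technical.

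Astrocytes take up glutamate and potassium released by neurons, convert glutamate to glutamine, and are joined to one another by gap junctions. They also contact blood vessels with endfeet rich in water channels, and secrete lipoproteins, matrix proteins and growth-regulating factors. After injury or inflammation they become reactive and raise intermediate filaments such as Gfap and Vim. Cultures prepared as neurons commonly keep some astrocytes, which divide unless they are blocked, and each library here is RNA from a whole culture. A lower value can therefore mean fewer astrocytes or less of that RNA per astrocyte. It can also mean a change in other cells of the culture, which may express some of these genes. Values are scaled by the library's total, so RNA gained or lost by other cells shifts them as well. These cannot be told apart.

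Labels and libraries set limits on the directions below. For the 6 libraries of the second table the treatment tag names the opposite group to the title. Titles were followed, and the column names of that table name the same groups as the titles. In the etoposide libraries, Cdkn1a, a cell-cycle inhibitor induced by p53, read 461, 295 and 126 FPKM (fragments scaled by transcript length and by the library's total), against 56.2, 61.5 and 93.6 FPKM in the DMSO libraries. Mdm2, a p53 target that degrades p53, read 182, 189 and 22.2 FPKM with etoposide, against 17.7, 15.3 and 13.1 FPKM with DMSO, and the p53 target Ccng1 375, 261 and 128 FPKM, against 74.2, 62.0 and 31.2 FPKM. For these 3 genes every etoposide library was above every DMSO library, and none was called by limma (adjusted p = 0.21, 0.3 and 0.133). Hras itself read 38.4, 51.6 and 33.5 FPKM under the H-Ras(G12V) label, against 45.9, 43.0 and 44.2 FPKM in the mCherry libraries. No source used here says whether that symbol collects reads of the transgene, so Hras does not check the label. Spry4, a feedback inhibitor induced by ERK signalling, rose to 28.1, 27.2 and 34.7 FPKM with H-Ras(G12V), against 8.54, 6.29 and 18.3 FPKM with mCherry (log2 fold change 1.48, limma adjusted p = 0.0297). Dusp6, another ERK feedback gene, was not called there (limma adjusted p = 0.0629). Spry4 read 25.85, 26.8 and 13.7 FPKM with etoposide, against 14.35, 16.7 and 14.3 FPKM with DMSO (limma adjusted p = 0.458). Cdkn1a, Ccng1 and Mdm2 were called higher with H-Ras(G12V) (limma adjusted p = 0.0115, 0.0323 and 0.0499). These genes are thus not particular to 1 treatment. A pair of libraries stood apart from their groups. The rank correlation of mCherry library 3 with mCherry libraries 1 and 2 was 0.965 and 0.963 across genes, while mCherry libraries 1 and 2 correlated at 0.993. Etoposide library 3 correlated at 0.985, 0.986 and 0.969 with the DMSO libraries, and at 0.921 and 0.946 with etoposide libraries 1 and 2. Counts of called genes, among the 35 and in each other gene list, are also given without it. Depth is not in the tables; a rough estimate from the steps of low FPKM values gave 15700000 to 17000000 fragments per library in the first table and 25500000 to 29900000 in the second.

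The astrocyte genes were detected in every group. In all 12 libraries, 30 of the 35 were at 1 FPKM or more and 19 were at 10 FPKM or more. Cst3, a secreted cysteine protease inhibitor, was the most abundant, at 37.6% of the summed FPKM of the 35 genes with H-Ras(G12V), 37.6% with mCherry, 47.0% with etoposide and 37.2% with DMSO. The median of the 35 group means was 65.5 FPKM with H-Ras(G12V), 48.0 FPKM with mCherry, 18.7 FPKM with etoposide and 46.5 FPKM with DMSO. The label of the cells is primary neuron, and all 18 neuronal markers examined, among them Rbfox3, Tubb3 and Map2, were above 0 in every library. Their summed level was 1577 to 1854 FPKM with H-Ras(G12V), 2477 to 2776 FPKM with mCherry, 855 to 3261 FPKM with etoposide and 2749 to 2962 FPKM with DMSO. Beside it, the 35 astrocyte genes summed to 5179 to 6156 FPKM with H-Ras(G12V), 3064 to 7340 FPKM with mCherry, 3228 to 5082 FPKM with etoposide and 4032 to 6661 FPKM with DMSO.

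**Figure D1:**
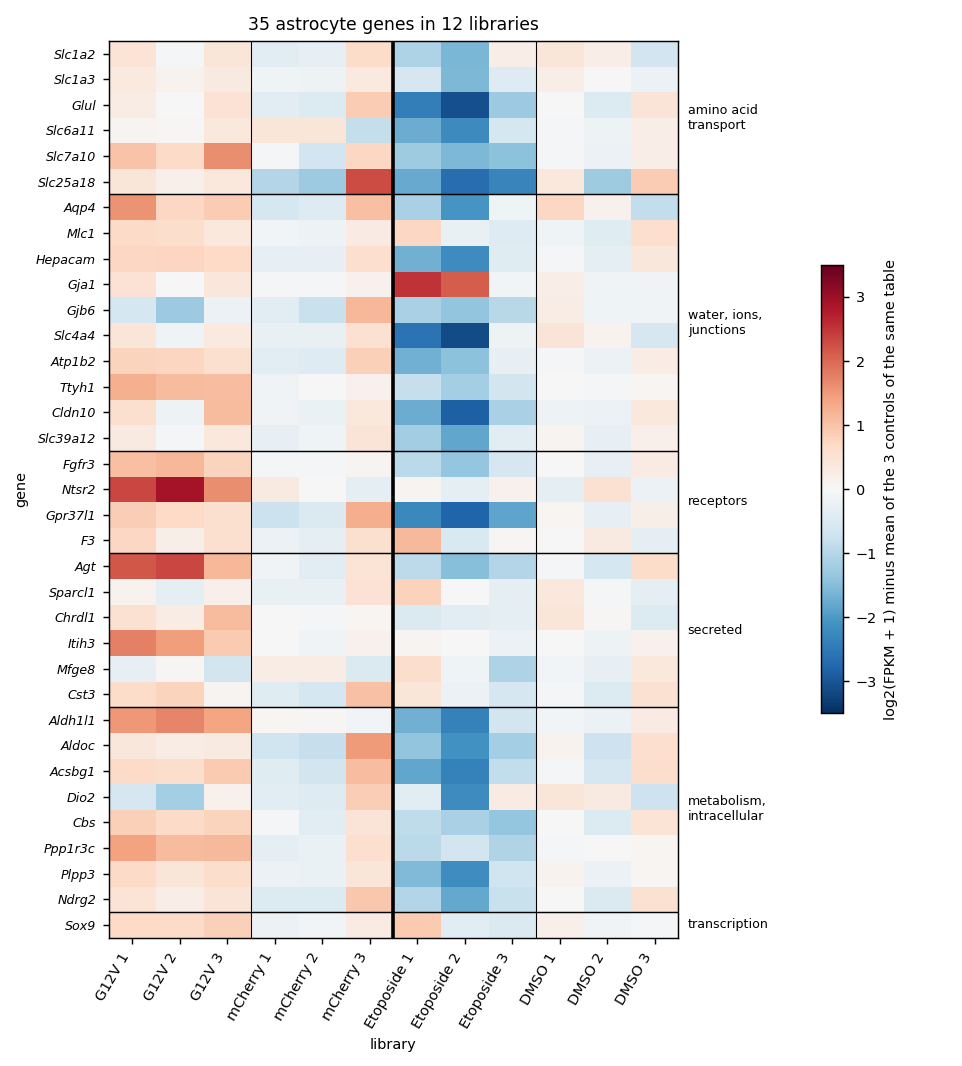
Level of each of the 35 astrocyte genes (down the page) in each of the 12 libraries (across), as log2(FPKM + 1) minus the mean of the control libraries of the same table. Columns 4 to 6 and 10 to 12 are the mCherry and DMSO libraries. mCherry library 3 is at least 1.5 times the mean of mCherry libraries 1 and 2 for 24 genes, against 16.0% of all genes. Etoposide library 2 has the lowest FPKM of the 12 libraries for 21 genes. That order runs across the first and second table, and the share of all genes was not counted.

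Promoters of 4 of these genes are shown because results below turn on them. Aldh1l1 had the smallest adjusted p with H-Ras(G12V), Agt was among the largest rises there, Gpr37l1 fell with etoposide, and Gja1 was the 1 gene called higher there without etoposide library 3. Each window runs from 250 bases before to 50 bases after the transcription start, 5′ to 3′ on the strand of the gene, from RefSeq on GRCm38.p6, which is another build than that of the tables. The windows are 6:90550543-90550842 on the plus strand for Aldh1l1, 8:124569657-124569956 on the minus strand for Agt, 1:135167632-135167931 on the minus strand for Gpr37l1 and 10:56377050-56377349 on the plus strand for Gja1. Capitals mark matches to the AP-1 motif TGANTCA in Gja1 and to the STAT motif TTCNNNGAA in Agt, searched on both strands.
Aldh1l1: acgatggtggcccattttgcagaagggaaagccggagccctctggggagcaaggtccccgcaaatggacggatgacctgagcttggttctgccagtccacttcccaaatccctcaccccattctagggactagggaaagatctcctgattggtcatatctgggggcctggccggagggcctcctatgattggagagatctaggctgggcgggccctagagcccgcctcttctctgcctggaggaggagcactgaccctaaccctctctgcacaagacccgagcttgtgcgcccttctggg
Agt: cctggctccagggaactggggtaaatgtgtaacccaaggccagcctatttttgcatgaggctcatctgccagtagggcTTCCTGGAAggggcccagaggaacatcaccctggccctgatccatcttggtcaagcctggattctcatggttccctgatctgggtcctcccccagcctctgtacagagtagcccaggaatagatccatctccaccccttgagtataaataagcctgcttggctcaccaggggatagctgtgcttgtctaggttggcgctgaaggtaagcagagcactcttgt
Gpr37l1: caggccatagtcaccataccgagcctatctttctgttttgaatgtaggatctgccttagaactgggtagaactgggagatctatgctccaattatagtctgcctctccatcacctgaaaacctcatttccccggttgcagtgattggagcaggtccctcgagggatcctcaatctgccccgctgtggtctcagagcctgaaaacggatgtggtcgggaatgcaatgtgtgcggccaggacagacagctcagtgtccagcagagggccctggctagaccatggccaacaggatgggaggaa
Gja1: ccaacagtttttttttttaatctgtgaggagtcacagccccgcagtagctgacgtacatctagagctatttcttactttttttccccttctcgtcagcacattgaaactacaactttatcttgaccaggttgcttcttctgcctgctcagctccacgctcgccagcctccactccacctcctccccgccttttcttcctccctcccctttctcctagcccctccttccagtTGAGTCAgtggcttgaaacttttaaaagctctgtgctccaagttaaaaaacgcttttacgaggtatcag
The Gja1 match starts at -19, counted from the transcription start, and the Agt match at -172. Windows were found for 30 of the 35 genes, 36 windows in all, and none was found for Chrdl1, Atp1b2, Sox9, Aqp4 and Sparcl1. AP-1 matches were in 2 of the 36 windows, those of Gja1 and F3, or 5.56%, against 7.81% of the 32851 windows of all genes. STAT matches were in 5 windows, or 13.9%, against 8.30% of all. The full palindromic nuclear factor I motif was in 0 of 36 windows, against 0.0365% of all, and its single arm TTGGCA was in 2, or 5.56%, against 14.1% of all. The SOX motif ACAAT was in 5 windows, or 13.9%, against 31.0% of all. A match is a run of letters in the window and was not tested as a binding site.

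With H-Ras(G12V), 8 of the 35 astrocyte genes rose and none fell. They were Ntsr2, Agt, Aldh1l1, Itih3, Ppp1r3c, Ttyh1, Fgfr3 and Sox9, and their group means were 1.67 to 6.43 times those of the mCherry cultures. Itih3 reached the level needed for the test only through the H-Ras(G12V) libraries, and 7 of the other 34 genes were called. Over all 12724 genes tested, 10.3% were called higher and 6.67% lower, 17% in all, beside 22.9% of the astrocyte genes called higher. At an unadjusted p under 0.05, limma had 14 of the 35 higher and 0 lower, beside 4376 of all 12724 genes in either direction. The H-Ras(G12V) libraries lay wholly above the mCherry libraries for 12 genes, or 34.3%, against a background of 23.7%; the 4 beyond those called were Mlc1, Chrdl1, Hepacam and Cbs. Estimates were above 0 for 31 of the 35, with Gjb6, Dio2, Mfge8 and Sparcl1 below 0, while 55.5% of all genes were above 0. The median log2 fold change of the astrocyte genes was 0.55, against 0.05 over all genes tested. Scaling the libraries to a common sum of FPKM moved the median of all genes by -0.128 and left the astrocyte genes 0.48 above it, beside 0.50 as deposited. Of all calls 60.7% were rises as deposited, 39.1% with the common sum and 49.1% with median-of-ratios scaling, and 8 astrocyte genes were called under each.

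Below, values in parentheses without a unit are log2 fold changes. Among receptors, 2 of 4 rose. Ntsr2, a neurotensin receptor that astrocytes express, had 20.1, 29.9 and 11.8 FPKM with H-Ras(G12V), against 4.13, 3.14 and 2.33 FPKM with mCherry. The groups were far apart, and the log2 fold change was 2.29 ± 0.33 (SE, adjusted p = 0.00762). Fgfr3, a fibroblast growth factor receptor, had 33.1, 36.1 and 27.4 FPKM with H-Ras(G12V), against 15.2, 14.8 and 16.6 FPKM with mCherry, a log2 fold change of 1.00 ± 0.14 (adjusted p = 0.00662). Its lowest H-Ras(G12V) library was well above its highest mCherry library. Gpr37l1, an orphan receptor of astrocytes, had 21.9, 19.3 and 17.6 FPKM with H-Ras(G12V), against 6.40, 7.76 and 29.3 FPKM with mCherry. There the H-Ras(G12V) libraries lay between mCherry libraries 1 and 2 and mCherry library 3, and the gene was not called (0.71 ± 0.50 on the log2 scale, adjusted p = 0.353). F3, the cell-surface receptor that starts blood clotting, was not called either, with an estimate of 0.50.

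Among secreted proteins, 2 of 6 rose. Agt, the precursor of angiotensin, had 9.81, 11.04 and 4.38 FPKM with H-Ras(G12V), against 1.18, 0.86 and 2.34 FPKM with mCherry (log2 fold change 1.90 ± 0.35, adjusted p = 0.0163). Itih3, a heavy chain that binds hyaluronan, had 4.10, 3.15 and 1.83 FPKM with H-Ras(G12V), against 0.49, 0.38 and 0.66 FPKM with mCherry (1.38 ± 0.23, adjusted p = 0.0126). For both genes every H-Ras(G12V) library was above every mCherry library, at levels low enough that the log2(FPKM + 1) scale understates the ratio of means, which was 5.76 for Agt and 5.94 for Itih3. Itih3 reached the mean of 1 FPKM needed for the test only through the H-Ras(G12V) libraries, with means of 3.03 FPKM with H-Ras(G12V) and 0.51 FPKM with mCherry, so its call is given as a description. Chrdl1, a secreted antagonist of bone morphogenetic proteins, was higher without overlap but not called (0.62, adjusted p = 0.0943). Cst3, Sparcl1, a matrix protein, and Mfge8, a bridging protein for phagocytosis, had overlapping groups and estimates of 0.50, -0.00 and -0.30.

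Among enzymes and other metabolic proteins, 2 of 8 rose. Aldh1l1, the folate enzyme most used to mark astrocytes, had 139, 160 and 127 FPKM with H-Ras(G12V), against 50.02, 49.2 and 44.9 FPKM with mCherry. The libraries of each group were close together and the groups far apart; the mean was 142 ± 16.8 FPKM with H-Ras(G12V) and 48.0 ± 2.73 FPKM with mCherry (SD, n = 3 each), and the log2 fold change was 1.54 ± 0.13 (SE, limma adjusted p = 0.00195). Ppp1r3c, which targets a phosphatase to glycogen, had 74.7, 60.7 and 61.1 FPKM with H-Ras(G12V), against 21.6, 23.1 and 41.7 FPKM with mCherry (1.22 ± 0.25, adjusted p = 0.0223). Cbs, the enzyme that makes cystathionine, was higher without overlap, at 30.5, 27.1 and 29.3 FPKM with H-Ras(G12V) and 15.9, 12.4 and 23.2 FPKM with mCherry, but was not called (adjusted p = 0.0524). Its libraries were close together with H-Ras(G12V) and spread with mCherry. Aldoc, a glycolytic aldolase, Acsbg1, an acyl-CoA synthetase, Dio2, which activates thyroid hormone, Plpp3, a lipid phosphatase, and Ndrg2, an intracellular protein used as an astrocyte marker, were not called. Their estimates were 0.32, 0.73, -0.54, 0.57 and 0.38 on the log2 scale.

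Among genes of water, ion and junction functions, 1 of 10 rose. Ttyh1, a membrane protein of the tweety family, had 229, 207 and 205 FPKM with H-Ras(G12V), against 87.6, 95.9 and 106 FPKM with mCherry, without overlap (1.14 ± 0.12, adjusted p = 0.00317). Mlc1 and Hepacam, which form a complex in astrocyte junctions and endfeet, were higher without overlap, with estimates of 0.55 (adjusted p = 0.0618) and 0.72 (adjusted p = 0.0794). Aqp4, the water channel of endfeet, had 280, 155 and 175 FPKM with H-Ras(G12V), against 60.4, 68.2 and 195 FPKM with mCherry (1.07 ± 0.46, adjusted p = 0.149). Gja1, the gap junction protein connexin 43, had 95.7, 66.6 and 88.0 FPKM with H-Ras(G12V), against 63.5, 63.6 and 75.1 FPKM with mCherry (0.29, adjusted p = 0.251). In both genes mCherry library 3 reached into the range of the H-Ras(G12V) libraries. The bicarbonate cotransporter Slc4a4, the sodium pump subunit Atp1b2, the tight junction protein Cldn10 and the zinc transporter Slc39a12 were not called, with estimates of 0.20, 0.69, 0.49 and 0.20. Gjb6, connexin 30, was low, at 1.09, 0.33 and 1.75 FPKM with H-Ras(G12V) and 1.42, 0.86 and 6.16 FPKM with mCherry.

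None of the 6 genes of amino acid transport and glutamine synthesis was called with H-Ras(G12V), and their groups overlapped; at an unadjusted p under 0.05, 1 of them, Slc7a10, was higher in limma. Slc1a3, the glutamate transporter GLAST, had 355, 300.7 and 346 FPKM with H-Ras(G12V), against 248.5, 247 and 352 FPKM with mCherry (0.26, adjusted p = 0.331). Slc1a2, the glutamate transporter GLT-1, had 103, 71.8 and 100 FPKM with H-Ras(G12V), against 57.5, 59.96 and 117 FPKM with mCherry (0.29, adjusted p = 0.521). Glul, glutamine synthetase, had 299, 253 and 359 FPKM with H-Ras(G12V), against 191, 179 and 465 FPKM with mCherry (0.26, adjusted p = 0.657). In Slc1a2 and Glul, mCherry library 3 was the highest of the 6 libraries. Slc7a10, a transporter of serine and glycine, had 4.41, 3.29 and 7.28 FPKM with H-Ras(G12V), against 1.60, 0.69 and 3.49 FPKM with mCherry (1.09, adjusted p = 0.0968). The GABA transporter Slc6a11 and the mitochondrial glutamate carrier Slc25a18 had estimates of 0.17 and 0.32. Sox9, the one transcription factor among the 35, needed for astrocyte development, rose to 35.9, 35.4 and 39.9 FPKM with H-Ras(G12V), against 18.8, 20.6 and 27.1 FPKM with mCherry (0.73 ± 0.16, adjusted p = 0.0240).

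**Figure D2:**
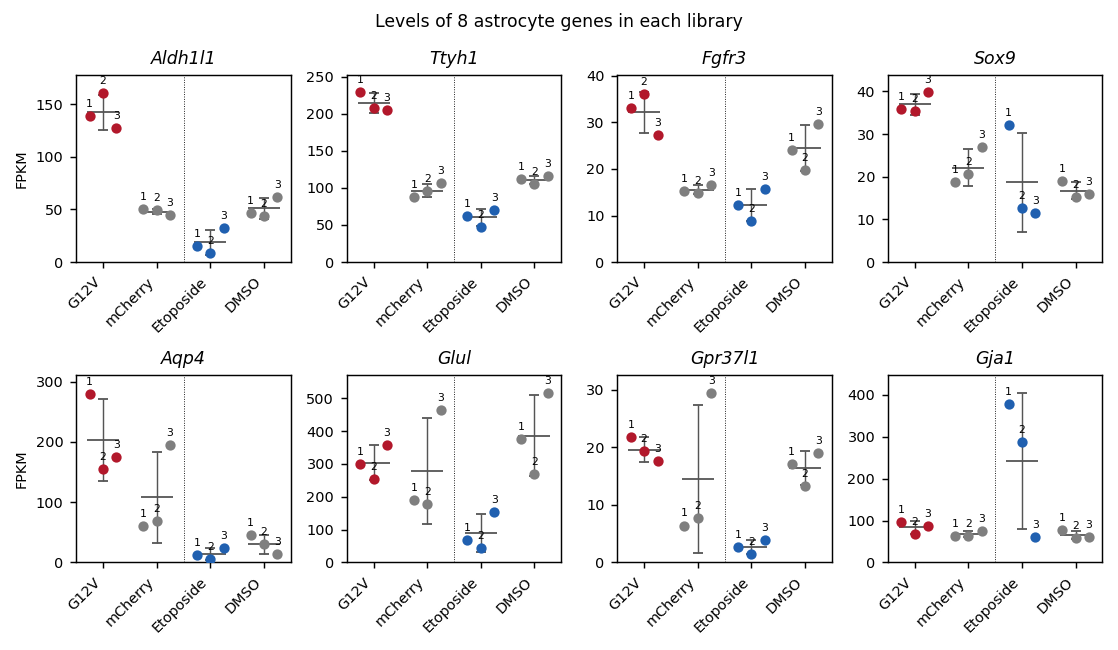
FPKM of 8 astrocyte genes (linear axis from 0) in each library, with a numbered dot for each library and a bar with whiskers for the group mean ± SD; H-Ras(G12V) and mCherry are left of the dotted line, etoposide and DMSO right of it. Aldh1l1 is at 127 to 160 FPKM with H-Ras(G12V) against 44.9 to 50.02 FPKM with mCherry, while mCherry library 3 reaches 465 FPKM for Glul, above all H-Ras(G12V) libraries.

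mCherry library 3 moved the count of calls by more than any other library of the first table. It was at least 1.5 times the mean of mCherry libraries 1 and 2 for 24 of the 35 astrocyte genes, which held for 16.0% of all genes. The H-Ras(G12V) libraries were all above mCherry libraries 1 and 2 for 29 of the 35, against 38.1% of all genes. Without mCherry library 3, 25 astrocyte genes were called higher and 1 lower, Mfge8 (-0.56, adjusted p = 0.0447), while 25.4% of all genes were called higher and 19.5% lower. Those 25 included Aqp4 (1.60, adjusted p = 0.00146), Slc1a2 (0.62, adjusted p = 0.0180), Slc1a3 (0.43, adjusted p = 0.0149), Glul (0.70, adjusted p = 0.00770) and Gpr37l1 (1.35, adjusted p = 0.000258). Gja1 was not called without it (0.37, adjusted p = 0.0878). The control spread in this fit came only from mCherry libraries 1 and 2, which correlated at 0.993. Whether they are separate cultures is not given, so their small spread, and with it these adjusted p-values, could be technical. With mCherry libraries 1 and 2 averaged and library 3 kept, 5 astrocyte genes were called. When each of the 6 libraries was left out in turn, the astrocyte genes called numbered 4 to 26. Aldh1l1, Ttyh1, Ntsr2 and Fgfr3 were called in all 6 of these fits. Sox9 and Ppp1r3c lost the call without any 1 of H-Ras(G12V) libraries 1, 2 and 3 or mCherry libraries 1 and 2. Agt lost it without H-Ras(G12V) library 1 or 2 or mCherry library 1 or 2, and Itih3 without H-Ras(G12V) library 1 or 2.

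Astrocyte genes outside the 35, and genes of reactive astrocytes, were counted in the same fit. With all libraries, 10.3% of all genes were called higher and 6.67% lower. Of 39 other astrocyte genes tested, 14 rose and 1 fell; the rises included Cd9, a tetraspanin (1.42), Lfng, a Notch-modifying glycosyltransferase (1.37), and the nuclear receptor Rorb (1.23), and the fall was Thbs1, a matrix glycoprotein (-0.99). Gfap, the astrocyte filament protein, had 2305, 2166 and 1320 FPKM with H-Ras(G12V), against 507, 519 and 1488 FPKM with mCherry (1.36, adjusted p = 0.0787). Here too mCherry library 3 was above the lowest H-Ras(G12V) library. Kcnj10, a potassium channel of astrocytes (0.91, adjusted p = 0.108), Apoe, a lipoprotein (0.90, adjusted p = 0.175), S100b, a calcium-binding protein (0.77, adjusted p = 0.490), and Nfia, a regulator of glial fate (0.04, adjusted p = 0.929), were not called. Of 13 genes raised in reactive astrocytes of several kinds, 8 rose and none fell in limma, with 12 higher and 0 lower at an unadjusted p under 0.05. They included Timp1, a protease inhibitor, at 63.0 ± 27.6 FPKM with H-Ras(G12V) and 5.28 ± 3.31 FPKM with mCherry (SD, n = 3 each; 3.38, adjusted p = 0.00543), Lcn2 (3.24), Serpina3n (2.73) and S1pr3 (1.97). Sox8, a SOX factor of glia, rose to 49.8, 44.2 and 52.8 FPKM with H-Ras(G12V), against 16.8, 11.3 and 20.3 FPKM with mCherry (1.57, adjusted p = 0.00615), and was 1 of 4 astrocyte regulators that rose among 20, with Lhx2 (-1.22) the 1 that fell; with libraries scaled to a common sum 2 of these 20 rose and 3 fell. Without mCherry library 3, 26 of the other astrocyte genes were called higher and 4 lower, as were 13 and 0 of the reactive genes and 7 and 4 of the regulators. In that fit 25.4% of all genes were called higher and 19.5% lower. Of the genes called with all libraries, Aqp9 among the other astrocyte genes and Steap4 and Aspg among the reactive genes reached 1 FPKM on average only through the group where they are high.

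Markers of other cells moved in the same comparison. Over all genes, 10.3% were called higher and 6.67% lower, and 25.4% and 19.5% without mCherry library 3. Of 12 genes of the oligodendrocyte lineage 8 rose, among them Gpr17 (2.19), Cldn11 (2.07) and Olig2 (1.83). No gene of that list was at 0 in these libraries, and their summed level was 985 to 1197 FPKM with H-Ras(G12V) and 240 to 805 FPKM with mCherry. Of 12 genes of neural progenitors 4 rose, Tnc (2.61), Nes (1.62), Vim (1.51) and Sox2 (0.99). Of 14 proliferation genes 12 rose, including Mki67 (1.04), with sums of 455 to 632 FPKM with H-Ras(G12V) and 255 to 323 FPKM with mCherry. Of 14 fibroblast and mural genes 12 fell, including Igf2 (-5.09) and Col3a1 (-3.74), with sums of 68.3 to 92.6 FPKM with H-Ras(G12V) and 358 to 484 FPKM with mCherry. Of 18 neuronal markers 4 fell, Rbfox3, Neurod6, Syn1 and Elavl4, and 1 rose, Nefm (2.10). Of the 12 fibroblast and mural genes, Vtn, Postn and Ogn reached 1 FPKM on average only through the mCherry libraries. Without mCherry library 3, 12 lineage genes were called higher, 7 progenitor genes higher, 14 proliferation genes higher, 12 fibroblast and mural genes lower and 1 higher, and 7 neuronal markers higher and 8 lower. The part of these cells in the rise of the astrocyte genes was not tested.

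With etoposide, 1 astrocyte gene fell, Gpr37l1, and none rose. The estimates lay below 0 for 28 of the 33 genes that passed the filter on low values, Gjb6 and Itih3 being the 2 that did not pass, while 43.0% of all genes were below 0. Over the 12371 genes tested, 0.453% were called lower and 0% higher, beside 3.03% of the astrocyte genes called lower. At an unadjusted p under 0.05, limma had 21 of the 33 lower and 1 higher, against 6.52% and 7.42% of all genes. The etoposide libraries lay wholly below the DMSO libraries for 21 of the 35 genes, or 60%, and wholly above them for 0, against backgrounds of 8.17% and 7.64%. The median log2 fold change was -1.12, against 0.09 over all genes tested.

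Receptors gave the called gene. Gpr37l1 fell to 2.61, 1.49 and 3.83 FPKM with etoposide, against 17.1, 13.2 and 18.9 FPKM with DMSO. The groups were wide apart; the means were 2.64 ± 1.17 FPKM with etoposide and 16.4 ± 2.90 FPKM with DMSO (SD, n = 3 each), with a log2 fold change of -2.29 ± 0.33 (SE, adjusted p = 0.0213). The call was lost without etoposide library 2 or any 1 DMSO library, and with genes of any level in the fit. Fgfr3 had 12.2, 8.78 and 15.7 FPKM with etoposide, against 24.1, 19.8 and 29.7 FPKM with DMSO, without overlap but not called (-0.96, adjusted p = 0.353). Ntsr2, which had the largest estimate with H-Ras(G12V), had 6.95, 4.96 and 7.36 FPKM with etoposide and 5.0, 9.87 and 5.45 FPKM with DMSO (-0.03, adjusted p = 0.971). F3 had 52.3, 15.9 and 24.2 FPKM with etoposide and 23.6, 29.4 and 18.3 FPKM with DMSO, with etoposide library 1 far above the rest.

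Of the 6 genes of amino acid transport and glutamine synthesis, 5 had every etoposide library below every DMSO library, and Slc1a2 did not. Glul had 69.0, 43.0 and 155 FPKM with etoposide, against 375, 270 and 515 FPKM with DMSO (-2.26 ± 0.46, adjusted p = 0.112). Etoposide library 3 was the nearest to the DMSO libraries and still below all of them. Slc1a3 had 164, 82.2 and 180 FPKM with etoposide, against 288, 246 and 213 FPKM with DMSO (-0.87, adjusted p = 0.356). Slc1a2 had 41.5, 28.6 and 103 FPKM with etoposide, against 119, 105 and 55.2 FPKM with DMSO (-0.81, adjusted p = 0.420). There etoposide library 3 and DMSO library 3 crossed over. Slc7a10 had 1.77, 1.20 and 1.44 FPKM with etoposide, against 5.41, 4.73 and 6.78 FPKM with DMSO, with tight groups (-1.42 ± 0.27, adjusted p = 0.0823). Slc25a18 and Slc6a11 had estimates of -2.24 and -1.53 and were not called.

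Of the 8 metabolic and intracellular genes, 7 were below without overlap, and Dio2 overlapped. Aldh1l1 had 15.1, 9.04 and 32.1 FPKM with etoposide, against 47.0, 44.0 and 62.0 FPKM with DMSO (-1.56 ± 0.42, adjusted p = 0.277). Ppp1r3c had 20.3, 25.4 and 18.6 FPKM with etoposide, against 38.5, 39.5 and 41.9 FPKM with DMSO (-0.88, adjusted p = 0.297). Etoposide library 3 was the highest of its group for Aldh1l1 and the lowest for Ppp1r3c. Plpp3 had 36.5, 23.1 and 66.2 FPKM with etoposide, against 118, 93.7 and 114 FPKM with DMSO (-1.47, adjusted p = 0.240). Cbs had 14.7, 12.2 and 10.4 FPKM with etoposide, against 28.1, 19.9 and 39.3 FPKM with DMSO (-1.12, adjusted p = 0.297). Aldoc, Acsbg1 and Ndrg2 had estimates of -1.57, -1.68 and -1.20, and none of the 8 was called.

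Of the 10 genes of water, ion and junction functions, 6 were below without overlap: Gjb6, Atp1b2, Hepacam, Ttyh1, Cldn10 and Slc39a12. Ttyh1 had 62.7, 47.8 and 70.2 FPKM with etoposide, against 111, 105 and 115 FPKM with DMSO (-0.88, adjusted p = 0.305). Cldn10 had 5.98, 2.26 and 9.74 FPKM with etoposide, against 19.9, 19.4 and 29.5 FPKM with DMSO (-1.91, adjusted p = 0.168). Gjb6 had 0.24, 0.06 and 0.39 FPKM with etoposide, against 2.30, 1.46 and 1.54 FPKM with DMSO. With all libraries it was below the level at which genes were tested. Aqp4 had 11.9, 5.72 and 24.6 FPKM with etoposide, against 45.3, 30.3 and 14.5 FPKM with DMSO (-1.11, adjusted p = 0.369), where DMSO library 3 lay inside the etoposide range. Gja1 stood on the other side in 2 libraries. It had 378, 287 and 60.8 FPKM with etoposide, against 76.8, 59.0 and 59.8 FPKM with DMSO (1.52 ± 0.59, adjusted p = 0.356). Etoposide libraries 1 and 2 were far above all DMSO libraries and library 3 was among them. Slc4a4 had an estimate of -1.96 and Mlc1 of 0.00.

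Of the 6 secreted proteins, Agt was below without overlap, at 3.90, 2.31 and 3.54 FPKM with etoposide and 7.92, 5.04 and 13.5 FPKM with DMSO (-1.14, adjusted p = 0.353). Itih3 was low and not tested, at 0.55, 0.44 and 0.25 FPKM with etoposide and 0.46, 0.28 and 0.61 FPKM with DMSO. Chrdl1, Sparcl1, Mfge8 and Cst3 overlapped, with estimates of -0.41, 0.16, -0.21 and -0.13. Sox9 had 32.2, 12.6 and 11.4 FPKM with etoposide and 19.0, 15.3 and 15.9 FPKM with DMSO (0.01, adjusted p = 0.992). Etoposide library 1 was above and libraries 2 and 3 were below the DMSO range.

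**Figure D3:**
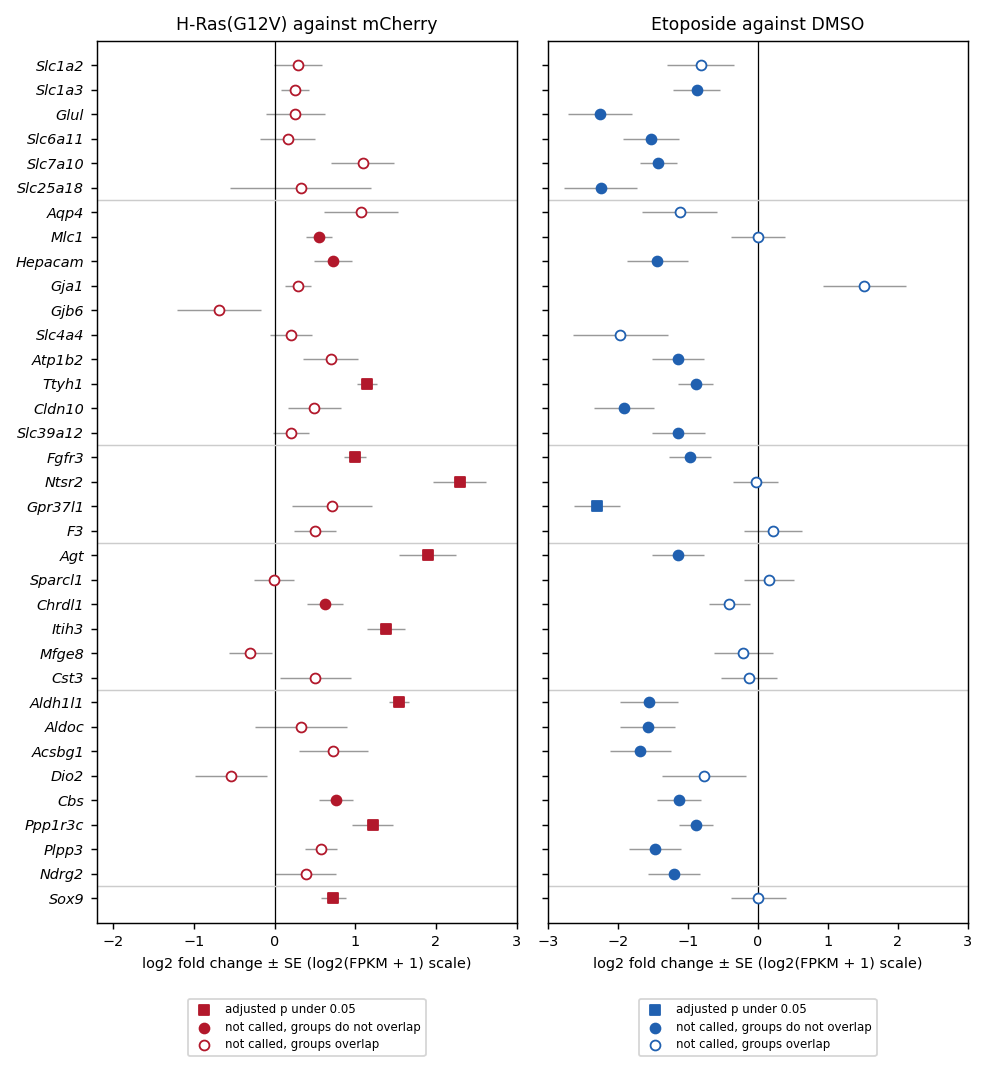
Log2 fold change with its SE for each of the 35 astrocyte genes with H-Ras(G12V) against mCherry (left) and etoposide against DMSO (right), on the log2(FPKM + 1) scale, ordered by role. Squares are genes with an adjusted p under 0.05, filled circles other genes whose groups do not overlap, and open circles the rest; 31 of 35 estimates are above 0 on the left and 28 of 33 are below 0 on the right.

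Etoposide library 3 set how many astrocyte genes were called. It was below all DMSO libraries for 27 of the 35, within their range for 8 and above them for 0. The share of all genes was not counted for these places. All etoposide libraries together were below all DMSO libraries for 21 of the 35. Etoposide library 3 was above both other etoposide libraries for 22, against 33.5% of all genes, and its values were thus closer to DMSO. Etoposide libraries 1 and 2 were both below all DMSO libraries for 24, against 23.5% of all genes, and both above them for 1, Gja1, against 36.0% of all genes. Without etoposide library 3, 24 astrocyte genes were called lower and 1 higher, while 13.4% of all genes were called lower and 18.4% higher. Gjb6 was among the 24 (-1.26, adjusted p = 0.00497 in limma). It reached the level needed for the test only through the DMSO libraries, so its call is given as a description. The higher gene was Gja1 (2.33, adjusted p = 0.000343), and the lower ones included Glul (-2.75, adjusted p = 0.000515), Slc4a4 (-2.86, adjusted p = 0.000487), Aldh1l1 (-2.02, adjusted p = 0.00112), Aqp4 (-1.60, adjusted p = 0.0234), Slc1a2 (-1.33, adjusted p = 0.0172) and Slc1a3 (-1.08, adjusted p = 0.0288). Ntsr2, Sox9, Mlc1, Sparcl1, F3, Dio2, Cst3, Mfge8 and Chrdl1 were not called there. Without DMSO library 3 as well, 22 were called lower and 1 higher, against 14.1% and 22.2% of all genes.

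Of 38 other astrocyte genes tested with etoposide, 1 fell, Hes5, a Notch target that holds back neuronal fate, and 0 rose, with 13 lower and 1 higher at an unadjusted p under 0.05 in limma. Hes5 had 1.43, 0.69 and 1.89 FPKM with etoposide, against 16.4, 8.97 and 21.5 FPKM with DMSO (-2.79, adjusted p = 0.0163). Kcnj10 had 4.62, 2.36 and 18.3 FPKM with etoposide, against 51.3, 30.9 and 54.8 FPKM with DMSO, without overlap but not called (-2.66 ± 0.58, adjusted p = 0.1496). Sox8 fell to 2.44, 1.58 and 2.99 FPKM with etoposide, against 23.5, 20.03 and 26.9 FPKM with DMSO (-2.89, adjusted p = 0.00434), and with Hes5 made up the 2 of 20 astrocyte regulators that fell. Gfap had 173, 101 and 297 FPKM with etoposide, against 366, 284 and 583 FPKM with DMSO, and overlapped by 1 library (-1.18, adjusted p = 0.353). S100b (-0.64, adjusted p = 0.369), Nfia (-0.85, adjusted p = 0.380), Sox2 (-0.22, adjusted p = 0.716) and Apoe (-0.05, adjusted p = 0.963) were not called. Of 11 genes raised in reactive astrocytes of several kinds, 0 were called in limma, with 3 higher and 1 lower at an unadjusted p under 0.05; without etoposide library 3, 6 were called higher and 1 lower. Without that library 15 other astrocyte genes were called lower and 3 higher, and 6 regulators lower and 2 higher. In that fit 13.4% of all genes were called lower and 18.4% higher. The median log2 fold change of the 11 reactive genes was 0.76, above 0 where that of the 35 astrocyte genes was -1.12.

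Markers of dividing cells and of the oligodendrocyte lineage were also lower with etoposide in part, and those of neural progenitors were mixed. Over all genes, 0.453% were called lower and 0% higher, and 13.4% and 18.4% without etoposide library 3. Of 12 proliferation genes 6 fell, including Ccnb1 (-3.24) and Ccna2 (-2.77), with sums of 56.5 to 119 FPKM with etoposide and 154 to 226 FPKM with DMSO. All but 1 of those 6 reached 1 FPKM on average only through the DMSO libraries, as did Sox10 and Gpr17 of the next list. Of 11 genes of the oligodendrocyte lineage 4 fell, Gpr17, Sox10, Pdgfra and Olig2. Sox10, a master regulator of that lineage, had 0.09, 0.14 and 0.01 FPKM with etoposide, against 25.1, 18.8 and 25.4 FPKM with DMSO. Gpr17 was at 0.11, 0.05 and 0 FPKM with etoposide, against 27.8, 25.6 and 16.6 FPKM with DMSO. Of the 14 lineage genes listed, 1 to 2 were at 0 in an etoposide library, against 0 to 1 in a DMSO library, and they summed to 80.1 to 222 FPKM with etoposide and 591 to 929 FPKM with DMSO. Of 12 genes of neural progenitors 2 fell, Hes5 among them, and the whole list summed to 609 to 1157 FPKM with etoposide and 1925 to 2453 FPKM with DMSO. That sum rests largely on Fabp7, which in the mCherry cultures averaged 2672 FPKM beside 3361 FPKM for the list. The estimates of the 12 genes went both ways, from -3.46 for Fabp7 to 2.71 for Tnc, with a median of -0.225. Nes (0.82) and Vim (1.00) were above 0. With a common sum of FPKM 1 of these 12 was called lower, and without etoposide library 3 there were 4 higher and 3 lower. No neuronal marker of 18 was called in limma (0 higher and 3 lower at an unadjusted p under 0.05), and their sums in etoposide libraries 1, 2 and 3 were 855, 1826 and 3261 FPKM. The 35 astrocyte genes summed to 5082, 3228 and 3302 FPKM in those libraries, and to 5293, 4032 and 6661 FPKM with DMSO. Without etoposide library 3, 11 proliferation genes, 7 lineage genes and 7 neuronal markers were called lower, and none of those 3 lists had a gene called higher. The part of these cells in the lower astrocyte values was not tested.

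**Figure D4:**
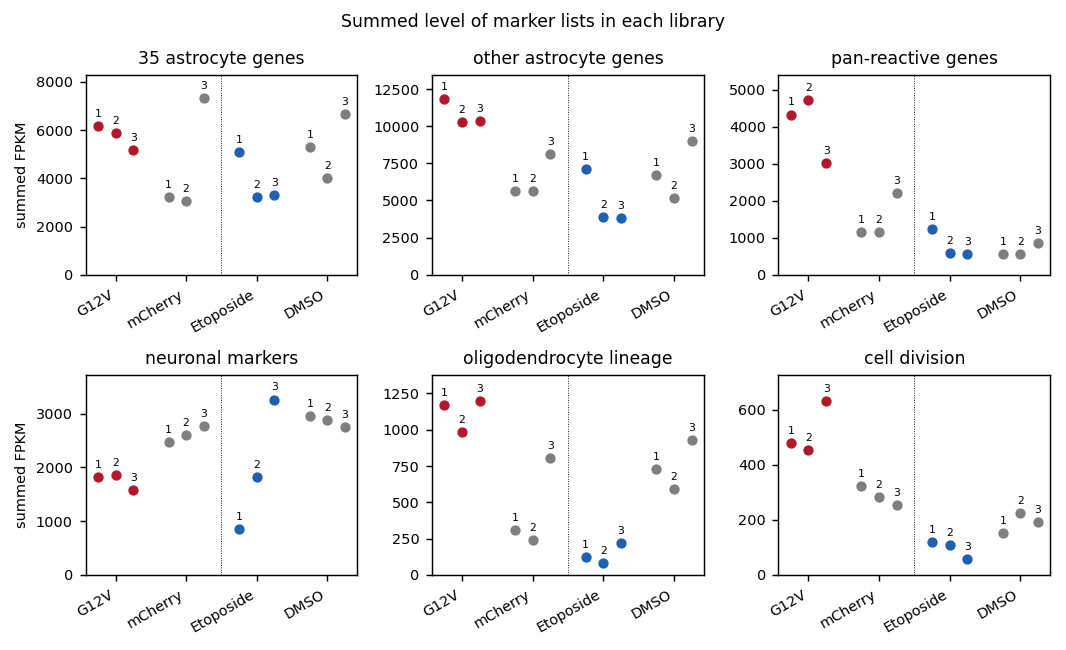
Summed FPKM of 6 gene lists (linear axis from 0) in each library, with the library number beside each dot; H-Ras(G12V) and mCherry are left of the dotted line, etoposide and DMSO right of it. The oligodendrocyte lineage sums to 985 to 1197 FPKM with H-Ras(G12V) against 240 to 805 with mCherry, and to 80.1 to 222 FPKM with etoposide against 591 to 929 with DMSO.

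The effects of both treatments were set against each other in a single fit of the 12 libraries, by subtracting the effect of etoposide on a gene from that of H-Ras(G12V). The treatments share no control libraries. For 12 of the 35 astrocyte genes this difference was above 0 past the threshold, and for 0 below it, while 3.40% of all 12646 genes were called above 0 and 0.356% below, 3.76% in all. At an unadjusted p under 0.05, limma had 25 above and 0 below, beside 2310 of all 12646 genes in either direction. The difference was above 0 for 32 of the 35, against 45.4% of all genes, and its median was 1.89 for the astrocyte genes and -0.06 over all genes. In all 12 of the called genes the H-Ras(G12V) estimate was above 0 and the etoposide estimate below 0. The 4 groups share 1 estimate of spread in that fit.

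The differences called were spread over all roles but the transcription factor. Aldh1l1 differed by 3.10 ± 0.47 on the log2 scale (SE, adjusted p = 0.00247), with estimates of 1.54 for H-Ras(G12V) and -1.56 for etoposide. Ttyh1 had the smallest adjusted p, with a difference of 2.03 ± 0.25 (adjusted p = 0.000691). Agt differed by 3.03 (adjusted p = 0.00647) and Gpr37l1 by 3.004 (adjusted p = 0.0167), so the largest differences fell on an enzyme, a hormone precursor and a receptor. Control means with mCherry and DMSO were 48.0 and 51.0 FPKM for Aldh1l1, and 14.5 and 16.4 FPKM for Gpr37l1. For Agt they were 1.46 and 8.82 FPKM, beside 8.41 FPKM with H-Ras(G12V). For Slc7a10 they were 1.93 and 5.64 FPKM, beside 4.99 FPKM with H-Ras(G12V). For Cldn10 they were 9.64 and 22.89 FPKM, beside 14.65 FPKM with H-Ras(G12V), and for Ntsr2 3.20 and 6.77 FPKM. The controls of Agt, Slc7a10, Cldn10 and Ntsr2 thus gave no common starting level. Those of Cbs (17.2 and 29.1 FPKM), Plpp3 (70.2 and 108.4 FPKM) and Fgfr3 (15.55 and 24.5 FPKM) lay apart as well. Slc7a10 (2.52, adjusted p = 0.00971), Plpp3 (2.04, adjusted p = 0.0235) and Cldn10 (2.40, adjusted p = 0.0422) were called here though neither treatment gave a call by itself. Cbs (1.89, adjusted p = 0.0149) was likewise called only in the difference. For Ntsr2 (2.32) and Itih3 (1.41) the etoposide estimates were -0.03 and -0.04, so the difference was close to the H-Ras(G12V) estimate. In these 12 libraries Itih3 averaged 1 FPKM or more only with H-Ras(G12V), and 11 of the other 34 genes were called. Glul (2.51, adjusted p = 0.0522), Hepacam (2.16, adjusted p = 0.0505), Aqp4 (2.18, adjusted p = 0.169), Sox9 (0.72, adjusted p = 0.403) and Gja1 (-1.23, adjusted p = 0.371) were not called.

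The separation of the groups gave a count of the same kind. For 7 of the 35 astrocyte genes the H-Ras(G12V) libraries were wholly above the mCherry libraries and the etoposide libraries wholly below the DMSO libraries, against 2.91% of the 12179 genes tested in both tables. They were Aldh1l1, Fgfr3, Ttyh1, Ppp1r3c, Agt, Cbs and Hepacam. Estimates were above 0 with H-Ras(G12V) and below 0 with etoposide for 26 of the 33 astrocyte genes tested in both, against 20.7% of all genes. When each of the 12 libraries was left out in turn, Agt, Aldh1l1, Cbs, Fgfr3, Ntsr2, Ppp1r3c, Slc7a10 and Ttyh1 were called in all 12 fits. Cldn10 was called in 3 of the 12, Itih3 in 5, Plpp3 in 6 and Gpr37l1 in 8. Without mCherry library 3, 20 astrocyte genes were called above 0 and 0 below, against 5.65% and 2.02% of all genes. Without etoposide library 3, 23 were called above 0 and 1 below, Gja1 (-2.04), against 10.6% and 12% of all genes. Kcnj10, Sox8 and the oligodendrocyte lineage, outside the 35, differed in the same direction, with 3.57 for Kcnj10 (adjusted p = 0.0188), 4.46 for Sox8 and 11 of 12 lineage genes called, 12 without mCherry library 3 and 11 without etoposide library 3. Of 14 proliferation genes 12 were called above 0, 12 without mCherry library 3 and 13 without etoposide library 3. With all libraries, 5 of 15 fibroblast and mural genes were called below 0, and 0 of 18 neuronal markers were called. Over all genes, 3.40% were called above 0 and 0.356% below in that fit. The part of these cells in the differences was not tested.

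**Figure D5:**
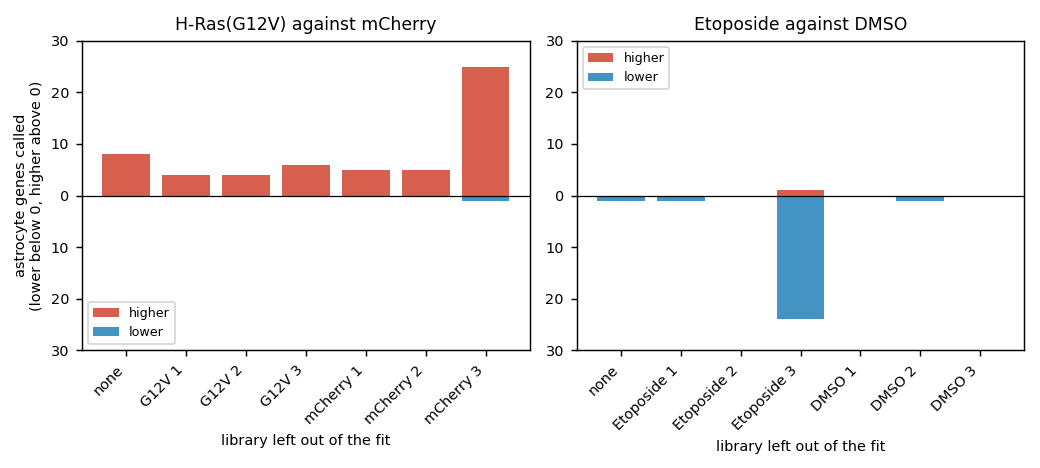
Number of the 35 astrocyte genes called higher (above 0) and lower (below 0) when each library named on the horizontal axis is left out of the fit, for H-Ras(G12V) against mCherry (left) and etoposide against DMSO (right). The counts are largest without mCherry library 3, with 25 higher and 1 lower, and without etoposide library 3, with 1 higher and 24 lower. The 24 include Gjb6, which reached the level needed for the test only through the DMSO libraries.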

How the data were processed

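mRNA of primary mouse neurons was measured by RNA-seq in 12 libraries, 3 per group. The authors deposited FPKM values, 1 table per treatment, as the file headers show and rounded to 2 decimals. HISAT, Bowtie2, RSEM and the build mm9 are named, without role or version, per the submitters' processing notes. No counts were used here, so no count model was fitted, and depth is known only roughly. Groups came from titles and column names. Tests were run on log2(FPKM + 1) with limma 3.58.1 (R 4.3.3; lmFit, then eBayes using a trend), keeping genes whose mean in the libraries fitted reached 1 FPKM, two-sided, with Benjamini-Hochberg adjustment over all genes and a threshold of 0.05; the code was tested on simulated data. Each effect was tested inside its own table. Log2 fold changes are on that scale and understate changes of low genes; ratios are of mean FPKM. Rough depths came from the FPKM steps, with transcript lengths of GENCODE release M21, another build; with counts rebuilt from them, chi-square over its degrees of freedom came to 3.13 between mCherry libraries 1 and 2 and to 12.5 to 496 between other library pairs, so all were kept. Replicate numbers were not used to pair libraries in the main fits. The 35 genes, the other gene lists and the roles were chosen with earlier results of these data known. Values in every library are given for Aldh1l1, Aqp4, Slc1a2, Slc1a3, Gja1, Sox9, Glul and called genes; from each other list, up to 4 called genes without overlap are named, with Gfap, S100b, Apoe, Kcnj10, Nfia and Sox2 always; further genes shown by library were chosen after their values were seen. Alternatives were the pseudocount, the filter, the scaling, the trend, library weights, a replicate block, an averaged mCherry pair, a single fit, and each library left out; leaving out mCherry, etoposide and DMSO library 3 together was chosen after seeing the data.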

Additional observations from a re-analysis of the deposited data

Results flagged for a closer look

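For 12 astrocyte genes the H-Ras(G12V) effect differed from the etoposide effect in the test of the difference itself, an interaction term of limma over the 12 libraries, on the log2 scale and with each adjusted p under the threshold. Among enzymes and intracellular proteins the difference was 3.10 for Aldh1l1, 2.10 for Ppp1r3c, 2.04 for Plpp3 and 1.89 for Cbs. Among secreted proteins it was 3.03 for Agt and 1.41 for Itih3, and among receptors 3.004 for Gpr37l1, 2.32 for Ntsr2 and 1.96 for Fgfr3. The amino acid transporter Slc7a10 differed by 2.52, the tight junction protein Cldn10 by 2.40 and the membrane protein Ttyh1 by 2.03. All 12 estimates were above 0 with H-Ras(G12V) and below 0 with etoposide, but for Ntsr2 (-0.03 ± 0.32, SE) and Itih3 (-0.04) the etoposide estimate was close to 0, and that of Ntsr2 ran from -0.19 to 0.24 with 1 library left out. Itih3 reached the level needed for the test only through the H-Ras(G12V) libraries and was not tested in the etoposide table. With each of the 12 libraries left out in turn, Cldn10 was called in 3 fits, Itih3 in 5, Plpp3 in 6 and Gpr37l1 in 8, and the other 8 genes in all 12.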

How the results depend on the processing

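Leaving out each library in turn gave 496 to 5716 genes called and 4 to 26 astrocyte genes (4 to 25 higher, 0 to 1 lower) with H-Ras(G12V), 4 to 3938 genes and 0 to 25 astrocyte genes (0 to 1 higher, 0 to 24 lower) with etoposide, and 277 to 2868 genes and 8 to 24 astrocyte genes (8 to 23 above 0, 0 to 1 below) for the difference of the effects. With H-Ras(G12V), 2161 genes and 8 astrocyte genes were called with all libraries. Library weights called 9028 genes and 33 astrocyte genes (31 higher, 2 lower), mCherry libraries 1 and 2 averaged 639 and 5 (5 higher), and a single fit of the 12 libraries 496 genes. With etoposide, 56 genes and 1 astrocyte gene were called. A mean of at least 5 FPKM called 22 genes, no filter 0 astrocyte genes, library weights 9211 genes and 28 astrocyte genes (27 lower, 1 higher), a fit without etoposide and DMSO library 3 4524 and 23 (22 lower, 1 higher), and a single fit 194 and 6 (6 lower). For the difference, 475 genes and 12 astrocyte genes were called. A mean of at least 5 FPKM called 256 genes, the averaged mCherry pair 283, library weights 7432 genes and 34 astrocyte genes (32 above 0, 2 below), a fit without etoposide and DMSO library 3 3200 and 24 (23 and 1), and one also without mCherry library 3, chosen after seeing the data, 4931 and 28 (27 and 1). The weights did not reach their convergence tolerance. The causes were not tested.

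With the replicate number as a block, 1681 genes and 10 astrocyte genes were called with H-Ras(G12V), 12 and 0 with etoposide, where Gpr37l1 lost its call (adjusted p = 0.0640), and 345 and 14 for the difference. Deviations of same-numbered libraries correlated at -0.039 to 0.119 in the first table and -0.265 to -0.151 in the second. Those of libraries with different numbers correlated at -0.120 to 0.111 and at 0.027 to 0.192. With 3 libraries per group, such values cannot tell whether same-numbered libraries share a preparation.

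The sign of the estimate turned in 48 alternatives, each of an astrocyte gene not called in the same comparison with all libraries. Each range is over fits without 1 library. With H-Ras(G12V) they were Slc6a11 (-0.26 to 0.38; -0.29 with library weights), Aldoc (-0.0743 to 1.07; -0.0468 with the mCherry pair averaged), Slc25a18 (-0.31 to 1.47; -0.25 averaged) and Sparcl1 (-0.13 to 0.25, 0.36 with weights). With etoposide they were Ntsr2 (-0.19 to 0.24), Sox9 (-0.44 to 0.27, -0.094 with the common sum, -0.0814 with median of ratios, -0.45 with weights), Mlc1 (-0.35 to 0.29, and -0.10, -0.0913 and -0.0389 with the same 3), Sparcl1 (-0.16 to 0.41, -0.21 with weights) and F3 (-0.24 to 0.59, -0.54 with weights). Further ones were Cst3 (-0.39 to 0.14, 0.37 without etoposide and DMSO library 3) and Mfge8 (-0.62 to 0.23, 0.42 without both). For the difference they were Sparcl1 (-0.41 to 0.15, 0.43 with weights, 0.000357 without the 3 libraries), F3 (-0.0887 to 0.74), Dio2 (-0.49 to 0.76) and Mfge8 (-0.53 to 0.32, 0.0337 averaged). Low members such as Gjb6 and Itih3 are limited by depth, since FPKM near 0 rests on few fragments.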

Other observations

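Other gene lists touch on astrocyte function. With H-Ras(G12V), 10.3% of all genes were called higher and 6.67% lower, and 25.4% and 19.5% without mCherry library 3. With etoposide, 0% were called higher and 0.453% lower, and 18.4% and 13.4% without etoposide library 3. Several of the counts below are near these shares. Of 10 partners of the glutamate and glutamine cycle tested with H-Ras(G12V), 2 rose, the glutamine transporter Slc38a3 (0.67) and the glutamate dehydrogenase Glud1 (0.42), while 0 were called with either rescaling of the libraries and 3 without mCherry library 3. With etoposide 0 of 10 were called by limma, with 0 higher and 1 lower at an unadjusted p under 0.05, and 3 were called lower without etoposide library 3. Of 10 genes of the A1 reactive state, 2 rose with H-Ras(G12V), H2-D1 (0.98) and Ggta1 (1.19), and 1 fell, Amigo2 (-0.99). With either rescaling 1 was called higher and 1 lower, and without mCherry library 3 there were 4 higher and 1 lower. Of 10 genes of the A2 reactive state 4 rose with H-Ras(G12V), among them Clcf1, a cytokine (2.92), and Cd109 (1.58); without mCherry library 3, 7 were called higher and 1 lower. Clcf1 reached 1 FPKM on average only through the H-Ras(G12V) libraries. With etoposide 0 of 8 genes of the A1 state and 0 of 10 of the A2 state were called, with 1 and 8 higher at an unadjusted p under 0.05, and without etoposide library 3, 2 A1 genes were called higher and 1 lower, and 8 A2 genes higher. The A2 list summed to 131 to 553 FPKM with etoposide and 112 to 149 FPKM with DMSO. Of microglial genes 1 of 6 rose with H-Ras(G12V) and 0 of 7 were called with etoposide (1 higher at an unadjusted p under 0.05), each with 1 called higher without the library that stood apart, with sums of 19.4 to 79.4 FPKM with H-Ras(G12V), 4.94 to 27.7 FPKM with mCherry, 21.6 to 144 FPKM with etoposide and 7.77 to 77.6 FPKM with DMSO.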
